A study of Mus musculus with 24 samples.

Results

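The mitosis genes described here are 36 genes of mitotic entry, chromosome segregation and cytokinesis, chosen by symbol from the deposited table of counts, which holds 24015 genes. All 36 symbols had a row. The livers came from female B6C3F1 mice, bought at an age of 5 to 6 weeks. The furan mice received 8 mg furan per kg body weight per day in corn oil by oral gavage for 21 days, and the control mice received corn oil alone by the same route. Every mouse was killed 4 h after its last dose. Each liver gave a fresh-frozen piece, a piece fixed in formalin for 18 h and a piece fixed for 3 wk, and the fixed pieces were embedded in paraffin (FFPE). The furan groups held animals 41, 43 and 44 for fresh-frozen pieces and animals 41, 42, 43 and 44 for each FFPE time. The control groups held animals 02, 04 and 06 for fresh-frozen pieces and animals 02, 03, 04 and 06 for each FFPE time. Fresh-frozen pieces of furan animal 42 and control animal 03 were not analysed here. RNA was taken from liver tissue without separation of its cells. A change in the number of dividing cells thus cannot be told apart from a change in RNA per cell.

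Cells enter mitosis when CDK1, bound to a B-type cyclin, phosphorylates a wide set of proteins. Aurora and Polo kinases then build the spindle, kinetochores attach chromosomes to it, and the spindle checkpoint holds back CDC20 until every chromosome is attached. CDC20 switches on the anaphase-promoting complex, which marks cyclin B for destruction, and a central spindle with a contractile ring then splits the cell. The genes are transcribed together late in the cell cycle through the MuvB core with B-MYB and FOXM1, and are repressed in resting cells by the DREAM complex, which the p53 target p21 (Cdkn1a) helps to form. Most hepatocytes of an adult liver are resting, and they divide again after tissue loss or toxic injury.

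Late cell cycle promoters in mammals are known for a cell cycle homology region, TTTGAA or TTCGAA, close to the start of transcription and for CCAAT boxes upstream of it. The stretches shown are the RefSeq bases just before the start (build GRCm38.p6, of mouse, read along the gene's own strand) for 4 genes with a clear rise under furan and for the marker Mki67, with the letters of both motifs in capitals where they match on either strand, so that a reversed CCAAT box reads ATTGG. No printed base belongs to both motifs.
Ccnb2 (chr9:70421555-70421684, minus strand): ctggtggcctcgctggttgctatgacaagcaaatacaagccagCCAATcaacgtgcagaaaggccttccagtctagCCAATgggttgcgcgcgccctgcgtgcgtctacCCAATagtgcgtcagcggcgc
Cdc20 (chr4:118437344-118437473, minus strand): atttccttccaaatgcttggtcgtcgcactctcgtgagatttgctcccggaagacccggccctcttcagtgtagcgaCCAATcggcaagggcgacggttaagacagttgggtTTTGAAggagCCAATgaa
Cdk1 (chr10:69352913-69353042, minus strand): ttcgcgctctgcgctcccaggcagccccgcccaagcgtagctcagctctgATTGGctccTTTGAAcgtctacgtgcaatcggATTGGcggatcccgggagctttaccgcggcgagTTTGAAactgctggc
Prc1 (chr7:80294346-80294475, plus strand): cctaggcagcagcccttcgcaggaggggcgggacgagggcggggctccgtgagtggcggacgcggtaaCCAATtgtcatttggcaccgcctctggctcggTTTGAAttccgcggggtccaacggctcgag
Mki67 (chr7:135716380-135716529, minus strand): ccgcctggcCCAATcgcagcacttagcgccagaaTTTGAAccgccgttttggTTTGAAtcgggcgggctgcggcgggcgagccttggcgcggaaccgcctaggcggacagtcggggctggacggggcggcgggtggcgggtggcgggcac

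In Cdc20 the homology region began 18 bases before the start, with CCAAT boxes at 53 and 8 bases. In Cdk1 it stood 71 and 15 bases before the start, and CCAAT boxes in reverse stood at 80 and 48 bases. The Ccnb2 stretch held CCAAT boxes at 87, 54 and 21 bases and no homology region in the bases shown. Outside that stretch, Ccnb2 had homology region matches that began 167 bases before the start and at base 5 after it. A RefSeq window of 250 bases before the start and 50 after it was at hand for 31 of the 36 genes. TTTGAA or TTCGAA, on either strand, was in 24 of these 31 (77.4%), against 21.7% of 27025 genes with a window and 16.5% of the 10345 that were tested in fresh-frozen livers. CCAAT was in 22 of the 31 (71.0%), against 41.1% of all genes with a window, and both motifs were in 20 (64.5%), against 9.65%. These are matches of letters in a window and not measured binding.

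Under furan, the mitosis genes were higher together in fresh-frozen liver. Of the 36 genes, 23 rose and 0 fell (adjusted p under 0.05), against 8.21% of 13794 tested genes that rose and 7.47% that fell. All 36 had a log2 fold change above 0, against 48.5% of tested genes, and in 27 of 36 every furan library was above every control library, against 19% of tested genes. The median log2 fold change was 1.34 over the 36 genes and -0.01 over all tested genes. The members were chosen with earlier results of these data known, so these contrasts are not an independent check. Levels below are CPM, the share of a library that a gene takes, after TMM scaling within one kind of piece, errors on fold changes are SE, and p-values are adjusted over all tested genes. Fresh-frozen values follow the order of animals 41, 43 and 44 for furan and 02, 04 and 06 for control.

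**Figure D1:**
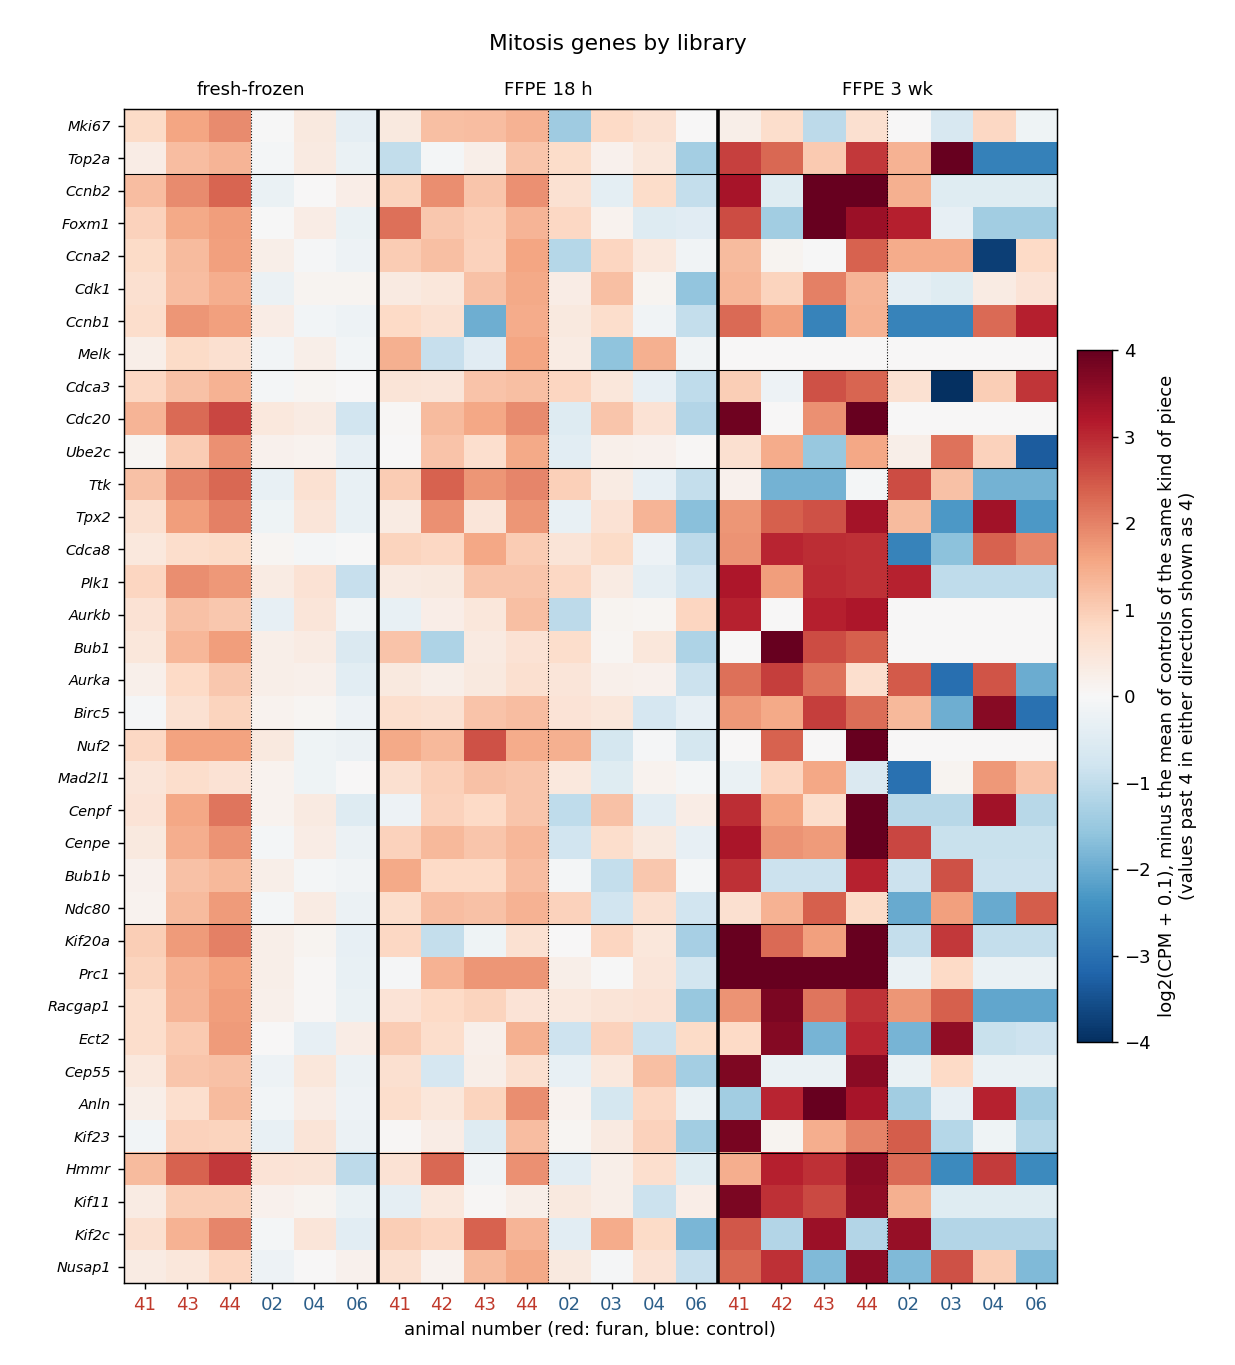
Heat map of the 36 mitosis genes (rows, grouped by role) in the 22 libraries (columns, by kind of piece, furan left of control), coloured by log2(CPM + 0.1) minus the mean of the control libraries of the same kind of piece. Fresh-frozen furan libraries are red for nearly every gene with animal 41 palest, the FFPE 18 h block is paler and mixed, and the FFPE 3 wk block holds strong colours of both signs.

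Of the 6 genes that drive entry into mitosis, 5 rose. Ccnb2, a B-type cyclin, had 1.31, 2.13 and 2.92 CPM in furan livers and 0.397, 0.500 and 0.611 CPM in control livers, for a log2 fold change of 2.04 ± 0.33 (adjusted p = 0.00828). Ccnb1, the other B-type cyclin, had 0.345, 0.829 and 0.753 CPM in furan livers against 0.234, 0.154 and 0.138 CPM in control livers (1.84 ± 0.43, adjusted p = 0.0256). For both cyclins the groups did not overlap. Cdk1, the kinase they bind, had 1.28, 2.01 and 2.32 CPM in furan livers against 0.654, 0.865 and 0.867 CPM in control livers (1.21 ± 0.26, adjusted p = 0.0206). Ccna2, the cyclin of S phase and G2, had 2.03, 2.89 and 3.79 CPM in furan livers against 1.36, 1.11 and 0.985 CPM in control livers (1.32 ± 0.25, adjusted p = 0.0137). Foxm1, the forkhead factor that activates genes of this group, had 1.88, 2.87 and 3.21 CPM in furan livers and 0.935, 1.17 and 0.768 CPM in control livers (1.45 ± 0.25, adjusted p = 0.0104). For each of these 5 genes the lowest furan library, animal 41, still lay above the highest control library. Melk, a kinase found in dividing cells, was at 0.328, 0.521 and 0.463 CPM in furan livers against 0.234, 0.327 and 0.236 CPM in control livers and did not pass (0.68 ± 0.31, adjusted p = 0.172).

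Of the anaphase-promoting complex and its partners, 2 of 3 genes rose. Cdc20, the activator of that complex, had 2.71, 5.16 and 6.98 CPM in furan livers and 1.38, 1.29 and 0.551 CPM in control livers (2.20 ± 0.41, adjusted p = 0.0132). Cdca3, described in frog as a trigger of mitotic entry, had the smallest adjusted p of the 36 genes, 0.00821, with 1.86, 2.37 and 2.81 CPM in furan livers and 0.935, 1.06 and 1.00 CPM in control livers (1.22 ± 0.20). Its control livers were nearly level. Ube2c, the ubiquitin-conjugating enzyme of the same complex, had 0.448, 0.947 and 1.74 CPM in furan livers and 0.491, 0.480 and 0.315 CPM in control livers; animal 41 lay inside the control range and the gene did not pass (1.23 ± 0.48, adjusted p = 0.119).

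Of the 8 mitotic kinases and their partners, 3 rose. Ttk, the kinase that starts the spindle checkpoint, had 0.500, 0.971 and 1.22 CPM in furan livers against 0.117, 0.307 and 0.118 CPM in control livers (2.23 ± 0.48, adjusted p = 0.0202). Tpx2, which activates Aurora A on the spindle, rose by 1.57 ± 0.39 (adjusted p = 0.0308), and Cdca8, the borealin subunit of the chromosomal passenger complex, by 0.68 ± 0.18 (adjusted p = 0.0399). The other kinases and partners did not pass. Plk1, the Polo kinase, was at 1.58 ± 0.46 (adjusted p = 0.0525), Aurkb, the kinase of the passenger complex, at 1.02 ± 0.31 (adjusted p = 0.0608) and Bub1, a checkpoint kinase, at 1.44 ± 0.47 (adjusted p = 0.0753), each with all furan libraries above all control libraries. Aurka, the spindle pole kinase, was at 0.72 ± 0.27 (adjusted p = 0.106) and Birc5, the survivin subunit of the passenger complex, at 0.55 ± 0.28 (adjusted p = 0.213), with overlapping groups.

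At the kinetochore, 4 of 6 genes rose. Mad2l1, the checkpoint protein that holds CDC20, had the smallest fold change among the 23 called genes, with 5.02, 5.87 and 5.33 CPM in furan livers and 3.97, 3.17 and 3.62 CPM in control livers (0.59 ± 0.13, adjusted p = 0.0206). Nuf2, a subunit of the NDC80 complex that grips microtubules, had 0.638, 1.16 and 1.16 CPM in furan livers and 0.444, 0.269 and 0.256 CPM in control livers (1.60 ± 0.34, adjusted p = 0.0202). Groups did not overlap for either gene. Cenpf, a large kinetochore protein, rose by 1.58 ± 0.43 (adjusted p = 0.0420) and Cenpe, the kinetochore motor, by 1.39 ± 0.39 (adjusted p = 0.0456). Ndc80, the partner of Nuf2, had a similar fold change with a larger error and did not pass (1.43 ± 0.53, adjusted p = 0.107), nor did Bub1b, the checkpoint protein BubR1 (0.99 ± 0.31, adjusted p = 0.0648).

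Of the 4 spindle genes, 3 rose. Hmmr, a spindle microtubule protein, had the largest fold change of the 36, 2.3 ± 0.54 (adjusted p = 0.0256), with 1.26, 2.82 and 3.97 CPM in furan livers and 0.724, 0.711 and 0.177 CPM in control livers. Control animal 06 was the low library there. Kif2c, a motor that depolymerises microtubules, rose by 1.52 ± 0.42 (adjusted p = 0.0458), and Kif11, the motor that pushes spindle poles apart, by 0.81 ± 0.22 (adjusted p = 0.0423). Nusap1, which bundles spindle microtubules, was at 0.59 ± 0.22 and did not pass (adjusted p = 0.106).

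Of the 7 cytokinesis genes, 4 rose. Prc1, which bundles the microtubules of the central spindle, had 1.98, 2.87 and 3.36 CPM in furan livers and 1.24, 1.08 and 0.808 CPM in control livers (1.38 ± 0.25, adjusted p = 0.0113). Kif20a, a motor of the central spindle, had 3.15, 5.31 and 6.54 CPM in furan livers and 1.82, 1.67 and 1.22 CPM in control livers (1.66 ± 0.28, adjusted p = 0.00969). In both genes every furan library stood clear of the controls. Racgap1, a subunit of the centralspindlin complex, had 1.69, 2.77 and 3.42 CPM in furan livers and 1.17, 1.06 and 0.827 CPM in control livers (1.35 ± 0.28, adjusted p = 0.0178). Ect2, the exchange factor that centralspindlin recruits, had 3.67, 4.69 and 7.44 CPM in furan livers and 2.27, 1.77 and 2.78 CPM in control livers (1.20 ± 0.28, adjusted p = 0.0250). These 2 also had no overlap between the groups. Anln, the anillin of the contractile ring, was at 0.79 ± 0.29 (adjusted p = 0.102), Cep55, which acts in the final cut, at 1.11 ± 0.39 (adjusted p = 0.0889), and Kif23, the motor subunit of centralspindlin, at 0.61 ± 0.37 (adjusted p = 0.301); none of the 3 passed and each overlapped between groups.

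The 2 markers most used to score dividing cells both rose. Mki67, whose protein coats mitotic chromosomes, had 6.05, 10.7 and 13.3 CPM in furan livers and 3.48, 4.65 and 2.72 CPM in control livers (1.46 ± 0.30, adjusted p = 0.0176). Top2a, the topoisomerase that untangles sister DNA, had 3.17, 6.09 and 6.69 CPM in furan livers and 2.38, 3.27 and 2.11 CPM in control livers (1.02 ± 0.29, adjusted p = 0.0480). Animal 41 was inside the control range for Top2a, which was the last of the 23 genes to pass. Per kilobase of annotated exon, Cdc20 was highest in furan livers at 2.65 ± 1.15 CPM per kb, followed by Aurka at 1.48 ± 0.44 CPM per kb, and Ndc80 was lowest at 0.0814 ± 0.0468 CPM per kb (SD, n = 3). In control livers Aurka was highest at 0.891 ± 0.220 CPM per kb and Ndc80 lowest at 0.0283 ± 0.0090 CPM per kb (SD, n = 3). The SDs of Cdc20 and Aurka in furan livers overlapped.

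**Figure D2:**
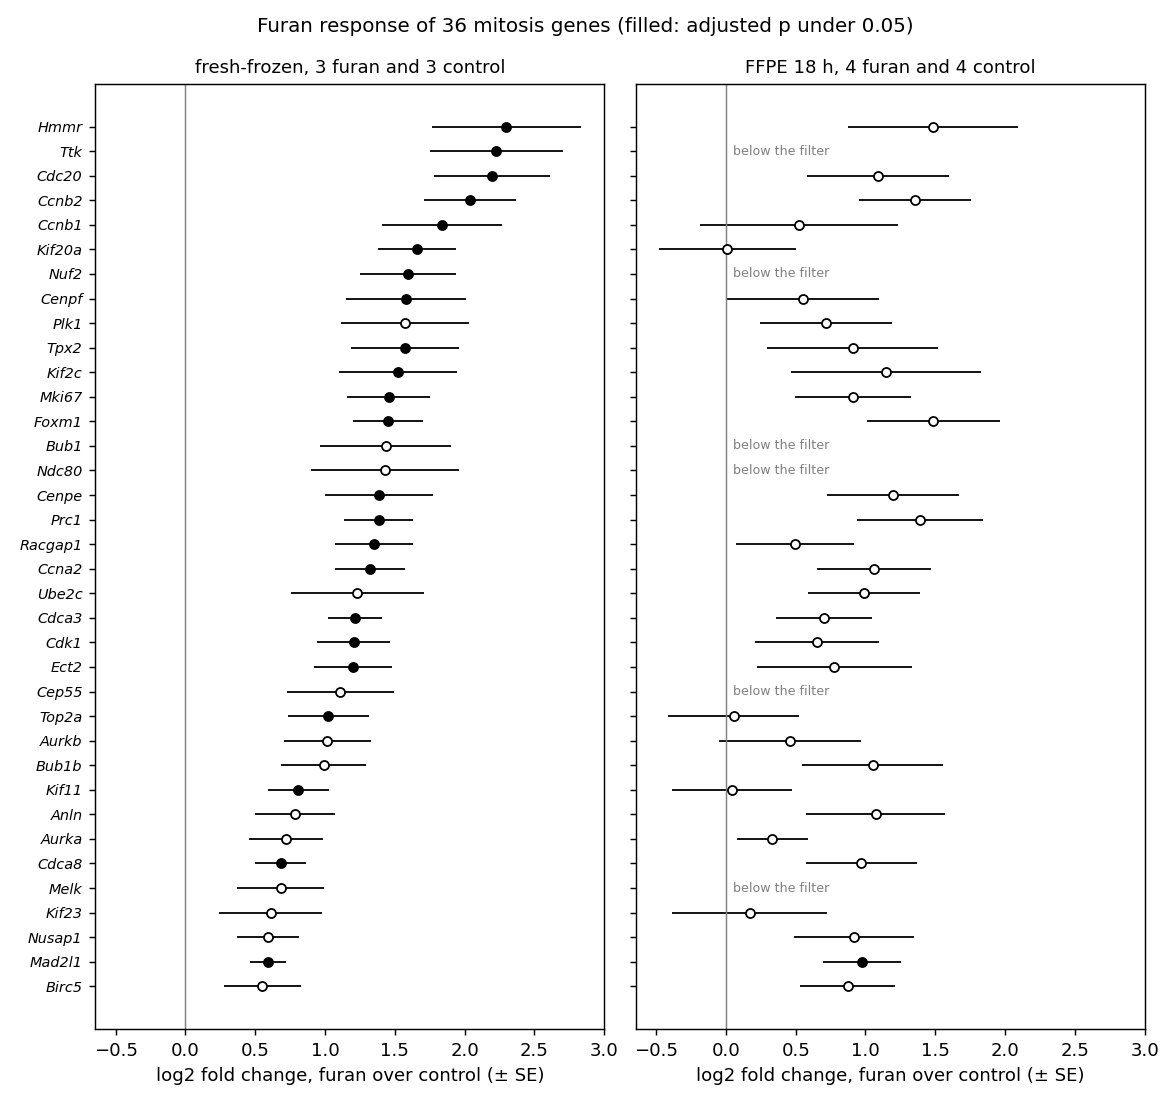
Log2 fold change of furan over control with its SE for each of the 36 genes, in fresh-frozen livers (left, 3 furan and 3 control) and FFPE 18 h livers (right, 4 furan and 4 control), ordered by the fresh-frozen value; filled points passed at adjusted p under 0.05. All 36 fresh-frozen points lie right of 0 and 23 are filled, while all 30 FFPE 18 h points lie right of 0, some close to it, and 1 is filled.

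The furan animals were not alike. Animal 41 was the lowest of the 3 fresh-frozen furan libraries for 36 of 36 genes, and animal 44 was the highest for 28 and animal 43 for 8. The level in animal 44 was 2.05 times that in animal 41 in the median gene, with a range from 1.06 to 3.92. Animals 43 and 44 were each above every control for 36 of 36 genes, and animal 41 for 27. Summed over the 36 genes, the fresh-frozen furan livers 41, 43 and 44 had 58.2, 95.5 and 116.8 CPM, and the control livers 02, 04 and 06 had 39.4, 42.5 and 32.1 CPM. Cdkn1a did not follow that order, with 26.8, 27.6 and 25.3 CPM in the furan livers and 0.818, 0.922 and 0.788 CPM in the control livers.

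**Figure D3:**
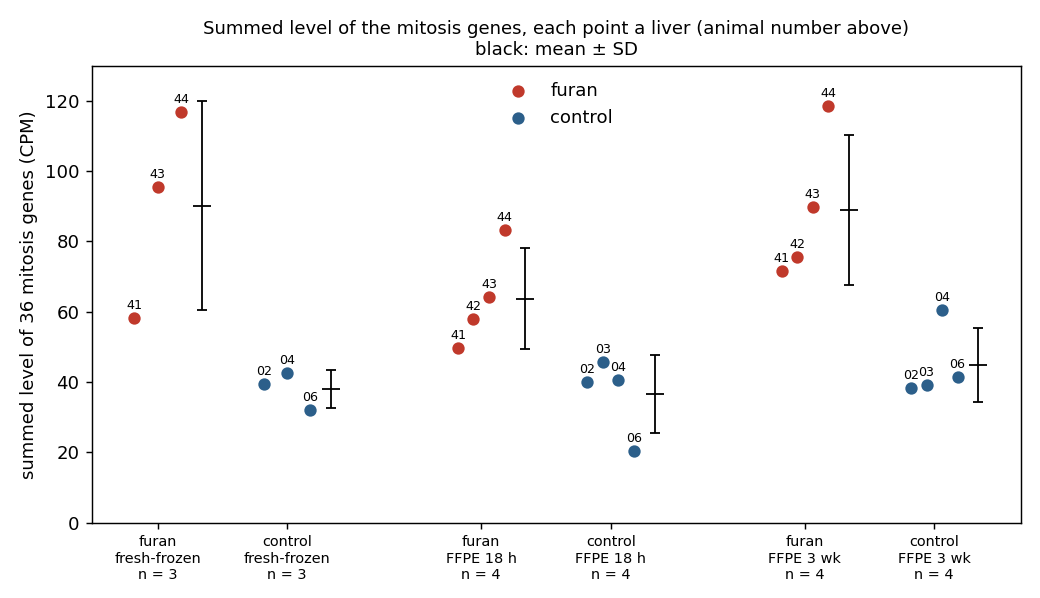
Summed CPM of the 36 mitosis genes in each liver piece, with the animal number above each point and the mean ± SD of each group in black. In each kind of piece the furan points lie above the control points, furan animal 41 is the lowest and animal 44 the highest furan point.

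Which genes passed in fresh-frozen livers depended on single animals. Without furan animal 43 the count was 5 and without furan animal 44 it was 7, while without furan animal 41 it was 28. Without control animals 02, 04 and 06 in turn it was 11, 13 and 14. Over all tested genes, the number called higher was 1132 with every library. It was 508, 685 and 776 without furan animals 43, 44 and 41 in turn. Without control animals 02, 04 and 06 in turn it was 704, 633 and 865. Ccnb2, Cdca3, Kif20a, Foxm1 and Prc1 passed in each of these 6 fits. In 1 model of all 6 groups, the more variable FFPE libraries share the estimate of spread. In that model 0 of 36 passed by edgeR and 3 had an unadjusted p under 0.05. Of all 14054 genes tested there, 56 were called higher. The common dispersion was 0.0150 in the fresh-frozen libraries alone and 0.336 in the FFPE 3 wk ones. DESeq2 called 27 genes, 22 of them among the 23. The log2 fold changes of all 36 genes stayed above 0 in each of these fits.

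In FFPE 18 h livers few genes passed. Of the 30 members that passed the filter on low counts, 1 rose and 0 fell, against 3.92% and 4.47% of 12832 tested genes, so the share called, 3.33%, was near that of all genes. All 30 log2 fold changes were above 0, against 48.1% of tested genes, and the median was 0.91. In 7 of the 30 every furan library was above every control library, against 7.96% of tested genes. Bub1, Ttk, Ndc80, Nuf2, Cep55 and Melk were below the filter. The filter asks for a minimum in as many libraries as the smaller group holds, so a gene can pass through the group where it is high alone, and counts over the members that passed are descriptions only. Values follow the order of animals 41, 42, 43 and 44 for furan and 02, 03, 04 and 06 for control.

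Mad2l1 was the gene that rose, with 2.67, 3.35, 3.89 and 3.71 CPM in furan livers and 2.28, 1.18, 1.87 and 1.59 CPM in control livers (0.98 ± 0.28, adjusted p = 0.0485). The groups did not overlap, but the call was lost in 7 of the 8 fits that left out 1 animal (adjusted p up to 0.135) and held without control animal 02 (adjusted p = 0.0456). Next came Ccnb2, with 2.19, 4.31, 2.55 and 4.27 CPM in furan livers and 1.78, 0.836, 1.93 and 0.530 CPM in control livers (1.36 ± 0.40, adjusted p = 0.0551). Foxm1 had 2.79, 1.20, 1.09 and 1.51 CPM in furan livers and 1.00, 0.590, 0.331 and 0.353 CPM in control livers (1.49 ± 0.48, adjusted p = 0.0763). In both, furan and control did not overlap. Prc1 had 0.770, 2.21, 2.96 and 2.96 CPM in furan livers and 0.946, 0.787, 1.16 and 0.442 CPM in control livers (1.39 ± 0.45, adjusted p = 0.0782). Ccna2 had 2.31, 2.63, 2.15 and 3.46 CPM in furan livers and 0.445, 2.06, 1.49 and 0.971 CPM in control livers (1.06 ± 0.41, adjusted p = 0.131). Furan animal 41 lay inside the control range for Prc1, and no furan library did for Ccna2. DESeq2 called Mad2l1, Prc1, Foxm1 and Ccnb2.

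Several genes that rose in fresh-frozen livers were spread widely in FFPE 18 h livers. Mki67 had 2.02, 3.59, 3.65 and 4.07 CPM in furan livers and 0.501, 2.70, 2.31 and 1.5 CPM in control livers (0.91 ± 0.41, adjusted p = 0.205). Cdk1 had 2.31, 2.51, 4.18 and 5.37 CPM in furan livers and 2.23, 4.23, 1.93 and 0.530 CPM in control livers (0.65 ± 0.45, adjusted p = 0.417). In Mki67 control animals 03 and 04, and in Cdk1 control animal 03, reached into the furan range. Cdc20 had 0.948, 2.33, 2.92 and 3.71 CPM in furan livers and 0.612, 2.11, 1.43 and 0.353 CPM in control livers (1.09 ± 0.51, adjusted p = 0.219). Cdca3 had 4.27, 4.19, 6.73 and 7.03 CPM in furan livers and 5.51, 4.13, 2.37 and 1.41 CPM in control livers (0.70 ± 0.34, adjusted p = 0.240). For both, control animal 06 was the lowest library. Hmmr had 0.652, 2.39, 0.365 and 1.71 CPM in furan livers and 0.278, 0.492, 0.716 and 0.265 CPM in control livers (1.48 ± 0.61, adjusted p = 0.159), and Ccnb1 had 0.830, 0.718, 0.0405 and 1.41 CPM in furan livers and 0.612, 0.787, 0.386 and 0.177 CPM in control livers (0.53 ± 0.71, adjusted p = 0.711). Ccnb1 in furan animal 43 rested on 1 count.

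Kif20a, among the first genes called in fresh-frozen livers, had a fold change near 0 in FFPE 18 h livers, with 2.73, 0.718, 1.30 and 2.31 CPM in furan livers and 1.5, 2.75, 2.04 and 0.530 CPM in control livers (0.01 ± 0.49, adjusted p = 0.993). Top2a had 0.948, 1.86, 2.31 and 4.37 CPM in furan livers and 3.34, 2.21, 2.76 and 0.706 CPM in control livers (0.05 ± 0.47, adjusted p = 0.959). Kif11 stood at 0.04 ± 0.43 (adjusted p = 0.966). The signs of Kif20a, Top2a, Kif11 and Ccnb1 turned when single animals were left out. Not every tested member was checked for this. Racgap1 had 1.42, 1.68, 1.82 and 1.41 CPM in furan livers and 1.28, 1.38, 1.43 and 0.265 CPM in control livers (0.50 ± 0.42, adjusted p = 0.526), and Ect2 had 1.07, 0.838, 0.568 and 1.46 CPM in furan livers and 0.223, 0.983, 0.220 and 0.883 CPM in control livers (0.78 ± 0.56, adjusted p = 0.439). Neither separated the groups. Ttk and Nuf2, which were too low to be tested, had 0.296, 0.898, 0.568 and 0.652 CPM (Ttk) and 0.356, 0.299, 0.851 and 0.351 CPM (Nuf2) in furan livers, and 0.278, 0.147, 0.0551 and 0 CPM (Ttk) and 0.334, 0, 0.0551 and 0 CPM (Nuf2) in control livers. The 36 genes summed to 49.7, 57.9, 64.3 and 83.2 CPM in the furan livers and 40.1, 45.6, 40.5 and 20.5 CPM in the control livers. Control animal 06 held 37.3% of its counts in Rn45s, the ribosomal RNA precursor, against 7.22% or less in the other control libraries. It also had the lowest summed level. Without Rn45s in the totals the count called was again 1, but that step does not restore counts lost to Rn45s. With control animal 06 left out, Mad2l1 did not pass by edgeR (0.95 ± 0.31, adjusted p = 0.0678).

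In FFPE 3 wk livers the counts were few and patchy. Members with 0 counts numbered 4, 9, 8 and 2 in furan libraries 41, 42, 43 and 44. They numbered 16, 17, 20 and 26 in control libraries 02, 03, 04 and 06. The control libraries also held fewer genes over the whole table. In the same order, 14327, 13387, 12958 and 13633 genes had a count in furan libraries. In control libraries 13304, 12383, 12249 and 11275 genes did, so the zeros are not particular to the members. Only 19 members passed the filter, of which 1 rose and 0 fell, against 0.298% and 0.522% of 12064 tested genes; 17 of the 19 were above 0, against 51.4% of tested genes, and 2 had no overlap with furan higher, against 4.56%. Prc1 was the called gene, with 36, 50, 14 and 129 counts in the furan libraries and 0, 1, 0 and 0 counts in the control libraries, so it passed the filter through the furan libraries alone. Its fitted log2 fold change was 7.14 ± 1.53 (adjusted p = 0.0433). The ratio of group counts, scaled by totals after TMM, was 234, with a 95% counting interval from 41.6 to 9278. The call held without control animal 06 (adjusted p = 0.0287) and was lost in the other 7 fits that left out 1 animal (adjusted p up to 0.247), with the animals that have a fresh-frozen library (adjusted p = 0.219) and among genes with a mean of at least 1 CPM (adjusted p = 0.0501).

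Ccnb2 had 12, 0, 19 and 48 counts in the furan libraries and 1, 0, 0 and 0 counts in the control libraries, a ratio of 80.7 with a 95% counting interval from 14.1 to 3227. Cdc20 had 13, 0, 1 and 20 counts in the furan libraries and none in the 4 control libraries, and was at least 11.6-fold higher against a floor of 3 counts over the group. Nuf2 had 0, 3, 0 and 19 counts in the furan libraries and none in the control libraries, at least 7.49-fold higher. Intervals and floors cover counting error only, and the counts were uneven among the furan animals. Kif20a had 42, 6, 2 and 55 counts in the furan libraries and 0, 12, 0 and 0 in the control libraries, and Ttk had 3, 0, 0 and 3 counts in the furan libraries and 8, 7, 0 and 0 in the control libraries. Ect2 had 5, 33, 0 and 34 counts in the furan libraries and 0, 39, 1 and 1 in the control libraries. Among control libraries, animal 03 held all Kif20a counts and nearly all Ect2 counts, and animals 02 and 03 held the Ttk counts; none of the 3 genes was tested.

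Most genes with more counts overlapped between the groups. Mki67 had 4.98, 6.99, 2.02 and 6.67 CPM in furan livers and 4.30, 2.66, 7.56 and 3.73 CPM in control livers (0.18 ± 0.83, adjusted p = 0.985). Cdk1 had 5.51, 3.98, 8.85 and 5.57 CPM in furan livers and 1.61, 1.49, 2.68 and 3.11 CPM in control livers (1.41 ± 0.91, adjusted p = 0.661). Every furan library was above every control library for Cdk1 and not for Mki67. Foxm1 had 1.48, 0, 8.85 and 2.70 CPM in furan livers and 2.15, 0.106, 0 and 0 CPM in control livers (2.65 ± 1.92, adjusted p = 0.715), and Ccnb1 had 2.97, 1.92, 0 and 1.60 CPM in furan livers and 0, 0, 2.97 and 5.49 CPM in control livers (-0.38 ± 1.66, adjusted p = 0.984). Mad2l1 had 2.33, 5.21, 8.60 and 1.86 CPM in furan livers and 0.269, 3.08, 9.76 and 6.43 CPM in control livers (-0.14 ± 1.01, adjusted p = 0.991). Mad2l1 and Ccnb1 were the 2 tested members below 0. Cdca3 had 4.24, 1.78, 12.6 and 11 CPM in furan livers and 3.23, 0, 4.21 and 15.9 CPM in control livers, and Top2a had 4.24, 3.15, 1.26 and 4.56 CPM in furan livers and 1.61, 10.8, 0 and 0 CPM in control livers. Ccna2 had 3.18, 1.37, 1.26 and 6.92 CPM in furan livers and 3.76, 3.72, 0 and 2.28 CPM in control livers. For each of these 3, at least 1 control library lay within or above the furan range. Racgap1 had 1.38, 5.62, 1.77 and 3.04 CPM in furan livers and 1.34, 2.13, 0 and 0 CPM in control livers, and Hmmr had 1.48, 4.94, 4.30 and 7.01 CPM in furan livers and 2.69, 0, 3.92 and 0 CPM in control livers; neither passed (adjusted p = 0.800 for Racgap1 and 0.844 for Hmmr). Melk had no count in any FFPE 3 wk library. The 36 genes summed to 71.5, 75.6, 89.8 and 118.6 CPM in the furan livers and 38.2, 39.2, 60.4 and 41.6 CPM in the control livers.

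Whether the furan response differed between kinds of piece was tested as an interaction. For FFPE 18 h minus fresh-frozen, 0 of 34 members and 0% of 13739 genes passed; 1 member had an unadjusted p under 0.05, as did 455 of all genes. That member was Kif20a, whose response was lower in FFPE 18 h by a log2 difference of -1.66 ± 0.61 (unadjusted p = 0.0144, adjusted p = 1.00). For Ccnb2 the difference was -0.68 ± 0.57, for Mki67 -0.54 ± 0.54, for Foxm1 0.03 ± 0.53 and for Prc1 0.02 ± 0.55. Of the 34 differences, 25 were below 0, and the median was -0.43, against 0.01 over all genes tested. For FFPE 3 wk minus fresh-frozen, 0 of 32 members and 0% of 13156 genes passed, and for FFPE 3 wk minus FFPE 18 h, 0 of 31 members and 0% of 13282 genes; unadjusted p was under 0.05 for 2 and 5 members. DESeq2 called Prc1 in each of these last 2 comparisons and no member in the first. A miss of the threshold does not show that the responses were alike: the SEs of these differences ran up to 1.10 in FFPE 18 h minus fresh-frozen.

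In control livers, FFPE pieces were set against fresh-frozen pieces, and members were called in both directions. In FFPE 18 h against fresh-frozen, 29 members were tested, 6 were higher and 4 lower, against 34.2% and 33.8% of 13034 tested genes. The higher genes were Cdca3 (2.04 ± 0.42), Ube2c (1.41 ± 0.36), Aurka (1.18 ± 0.32), Ccnb2 (1.63 ± 0.47), Cdk1 (1.8 ± 0.53) and Birc5 (0.98 ± 0.37). The lower genes were Ect2 (-1.72 ± 0.50), Mad2l1 (-0.77 ± 0.26), Anln (-1.12 ± 0.41) and Kif11 (-0.94 ± 0.36). Without fresh-frozen animals 02 and 06 in turn, 6 and 5 members passed. The exonic length, taken over all annotated exons, ran from 1531 to 4934 nt in the higher genes and from 5386 to 9063 nt in the lower genes. Over the 29 members, Spearman's rank correlation between log2 fold change and length was -0.715, and over the 12454 genes with a length it was -0.499; the points share the same 7 libraries. For the furan response in fresh-frozen livers that correlation was -0.05 over the 36 members and 0.05 over 13167 genes. The labels name a different extraction kit for FFPE pieces and more sections at 3 wk, so these and preservation cannot be told apart. In FFPE 3 wk against fresh-frozen, 15 members were tested, 0 were higher and 1 lower, against 13.2% and 13% of 12145 genes. That gene, Kif11, had 1 count in the 4 FFPE 3 wk libraries against 281 in the 3 fresh-frozen ones, a ratio scaled by totals of 0.0158 with a 95% counting interval from 0.000398 to 0.0886 (adjusted p = 0.0348). With the animal as a block its adjusted p was 0.240. With single libraries left out, between 0 and 7 members passed. The 0 came without any one of the fresh-frozen controls and the 7 without FFPE 3 wk control 02 or 03. Kif11 was not this low in furan livers, with 45 counts over the 4 FFPE 3 wk libraries and 3 to 18 in each. Each of those libraries was above every FFPE 3 wk control library, but Kif11 was below the filter in that comparison.

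**Figure D4:**
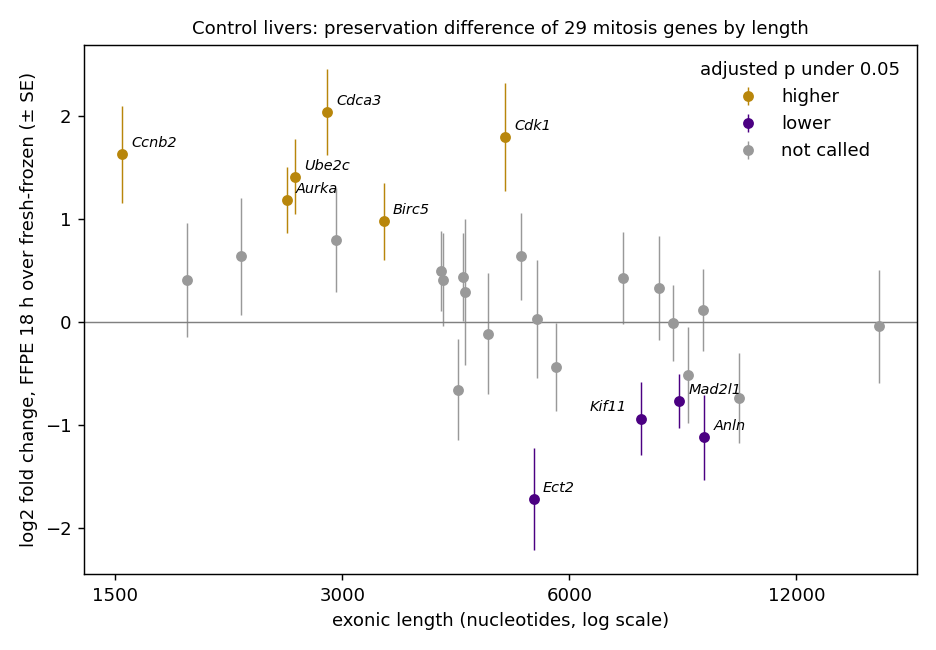
Log2 fold change of FFPE 18 h over fresh-frozen control livers with its SE (vertical axis) against exonic length in nucleotides (horizontal log axis) for the 29 tested mitosis genes, coloured by call. The 6 genes called higher lie at 1531 to 4934 nt and the 4 called lower at 5386 to 9063 nt.

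A second list of mitosis genes, none of them among the 36, was also higher in fresh-frozen livers, with a median log2 fold change of 0.84. Of the 84 tested, 33 rose and 0 fell, against 8.21% and 7.47% of all tested genes. An unadjusted p under 0.05 was reached by 54 of the 84, against 4410 of 13794 genes. The list was chosen with earlier results of these data known, so it is not an independent check. Gtse1, a microtubule protein that also restrains p53, rose by 2.64 ± 0.19 and in FFPE 18 h livers by 2.66 ± 0.56. Aspm, a spindle pole protein, rose by 1.92 ± 0.25 and in FFPE 18 h livers by 2.50 ± 0.58. Arhgap11a, a GTPase regulator, rose by 1.26 ± 0.18 and Spag5, the spindle protein astrin, by 1.95 ± 0.28 in fresh-frozen livers. In FFPE 18 h livers 3 of 58 rose, near the 3.92% of all tested genes that did, and the third was the kinetochore protein Zwint (0.66 ± 0.12).

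Of 44 tested genes of G1, S phase and DNA replication, 9 rose and 4 fell in fresh-frozen livers, against 8.21% and 7.47% of all tested genes, so the share that fell was near that of all genes. Their median log2 fold change was 0.24. Mcm2, a subunit of the replicative helicase, rose by 1.23 ± 0.22, Cdc6, which loads that helicase, by 2.15 ± 0.45 and Chaf1a, a histone chaperone of replication, by 0.99 ± 0.20. Tk1, thymidine kinase, fell, at -0.83 ± 0.19 in fresh-frozen livers and -0.97 ± 0.12 in FFPE 18 h livers. Of 13 p53 arrest genes, 8 rose and 0 fell in fresh-frozen livers. In FFPE 18 h livers 8 rose, against 3.92% of all genes tested there. Cdkn1a, the p21 inhibitor of cyclin-dependent kinases, rose by 4.97 ± 0.10 and 4.31 ± 0.14 in those 2 kinds of piece, Zmat3 by 1.74 ± 0.09, Btg2 by 1.38 ± 0.08 and Mdm2, the ligase that degrades p53, by 1.02 ± 0.07 in fresh-frozen livers. Of 13 DREAM and RB repressor genes, Rbl1 (p107) rose by 0.75 ± 0.21 and Rbl2 (p130) fell, at -0.29 ± 0.08, in fresh-frozen livers, and 1 call in each direction is near the share of all tested genes.

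Markers of the cell types a liver piece can hold were read beside these results in fresh-frozen livers, and their part in the members' change was not tested. Of all tested genes there, 8.21% rose and 7.47% fell, and the share of hepatocyte markers that fell was near the latter. The livers were rich in albumin (Alb), at 115555 to 125425 CPM in furan livers and 112027 to 117406 CPM in control livers. Of 15 hepatocyte markers 0 rose and 1 fell (Serpina1c, -0.44 ± 0.10), and their summed level was 161603 to 172756 CPM in furan livers and 160033 to 170998 CPM in control livers. Of 11 endothelial markers 6 fell, led by the scavenger receptor Stab2 (-0.57 ± 0.10), and their sum was 290.7 to 358.7 CPM in furan livers against 429.7 to 446.2 CPM in control livers. Of 4 tested erythroid precursor markers 1 rose, the transferrin receptor Tfrc (1.15 ± 0.18), which other cells also express; the other 10 summed to 30.2 to 31.3 CPM in furan livers and 26.8 to 31.6 CPM in control livers, with Hba-a1, Hba-a2, Hbb-b1, Hbb-b2 and Rhag listed at 0 in every fresh-frozen library. By edgeR, no marker passed among 14 of Kupffer cells and macrophages (339.2 to 430.1 CPM in furan livers, 320.8 to 838.3 CPM in control livers), 7 of T and NK cells (3.46 to 4.33 CPM in furan livers, 3.31 to 7.11 CPM in control livers) or 6 of B and plasma cells (4.29 to 5.07 CPM in furan livers, 3.69 to 6.38 CPM in control livers). Likewise none passed among 6 of cholangiocytes (38.1 to 42.5 CPM in furan livers, 37.8 to 43.9 CPM in control livers) or 10 of stellate cells and fibroblasts (388.8 to 434.0 CPM in furan livers, 369.8 to 389.1 CPM in control livers). The CPM ranges of these 5 lists sum every listed gene that had a row, tested or not. In the order given, they cover 15, 12, 8, 9 and 10 genes. Of the tested markers in these 5 lists, 1, of T and NK cells, had an unadjusted p under 0.05.

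The libraries were counted without strand, and 4 members share over 10% of their exonic bases with a gene on the opposite strand, so part of their counts is uncertain. These are Kif20a with Cdc23 (29.3%), Ube2c with Tnnc2 (22.8%), Ccna2 with Exosc9 (12.5%) and Prc1 with Rccd1 (11.1%). In fresh-frozen livers the partners were at -0.04 ± 0.08 for Cdc23, 0.22 ± 0.10 for Exosc9 and 0.40 ± 0.13 for Rccd1, and none of the 3 passed. Ccnb1 shares 23.4% of its 50-base words with other annotated genes, its pseudogene Ccnb1-ps among them, Cdc20 shares 10.6% and Plk1 10.4%, so the counts of these 3 are uncertain too. Elovl1, which overlaps 2.84% of the exonic bases of Cdc20 on the opposite strand, rose in fresh-frozen livers (0.38 ± 0.10, adjusted p = 0.0383). Among the other genes named, Chaf1a shares 52.5% and Rbl2 21.0% of exonic bases with another gene. Total counts were 33101755 to 58048387 in fresh-frozen libraries, 16269854 to 22494012 in FFPE 18 h and 3666173 to 11780691 in FFPE 3 wk. The median member had 73.5 to 95 counts per fresh-frozen furan library and 36.5 to 52 per control library. Per FFPE 18 h library it had 16 to 34 counts in furan and 5 to 17.5 in control livers, and in FFPE 3 wk 5 to 33 per furan library and 0 to 1 per control library.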

How the data were processed

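RNA from fresh-frozen and FFPE liver pieces was selected on poly(A), made into libraries with a kit that does not mark strand and sequenced on a HiSeq 2000, per the labels' protocols. Per the submitters' processing notes, the tools were CASAVA 1.8.2, STAR 2.3.0 and featureCounts 1.4.4, and the build was mm9. The deposited values are raw whole-number read counts per gene symbol, as the authors made them. Of the table's 24 columns, 22 could be tied to a label through kind of piece and animal, and the other 2 were not used. Counts differed between replicates by more than sampling noise in every pair (chi-square of at least 9.73 per degree of freedom).

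Furan was compared with control within each kind of piece by edgeR 4.0.16 (quasi-likelihood F test, filterByExpr with a minimum count of 10, TMM scaling, R 4.3.3). Benjamini-Hochberg adjustment ran over every tested gene, calls were made under 0.05, and the same test gave the interactions and the preservation comparisons. SE is the log2 fold change divided by the square root of F. The steps were tested on simulated data. The members and gene lists were chosen with earlier results of these data known. Libraries were set out value by value for called members (up to 16 with the smallest p) and for Mki67, Cdk1, Ccnb1, Ccna2, Top2a and Foxm1; of every other list up to 4 called genes with the smallest p were eligible to be named, and Cdkn1a always. Pieces with one animal number come from 1 liver per the labels. After removal of group means, pieces of the same animal correlated across genes at 0.389 to 0.506 (FFPE 18 h and fresh-frozen), 0.0852 to 0.255 (FFPE 3 wk and fresh-frozen) and 0.00978 to 0.272 (FFPE 3 wk and FFPE 18 h). Alternatives were DESeq2 1.42.0, RLE scaling, other filters, robust dispersions, 1 model of all groups, thinning to 3666173 counts, shared animals, an animal block and leaving out each library; totals without Rn45s were added after seeing the data. Lengths, overlaps and shared 50-base words come from GENCODE on GRCm38, which is not the build of the counts.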

Additional observations from a re-analysis of the deposited data

Results flagged for a closer look

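Among the groups of 4 FFPE libraries, 8 of 60 values tested had 1 library far from the other 3. The cut flags about 1 in 20 groups of normally spread values. A group with 0 in 3 libraries is flagged whenever the other library holds any count. The 8 of 60 thus cannot be set against that share. In FFPE 18 h controls, animal 06 held 37.3% of its counts in Rn45s, against 6.42% to 7.22% in the other 3. The other 7 were in FFPE 3 wk controls. Animal 03 stood out for Top2a at 10.8 CPM (0 to 1.61 CPM in the others), for Kif20a at 1.28 CPM (0 in the others) and for Prc1 at 0.106 CPM, which is 1 count (0 in the others). Animal 02 stood out for Foxm1 at 2.15 CPM (0 to 0.106 CPM in the others) and, at 1 count each, for Ccnb2 and Kif11, both at 0.269 CPM (0 in the others). Animal 04 stood out for the summed level of the 36 genes at 60.4 CPM (38.2 to 41.6 CPM in the others).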

How the results depend on the processing

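In fresh-frozen livers the count of 23 called mitosis genes became 0 in 1 model of all 6 groups, 3 of the 8 that passed the filter after thinning to 3666173 counts, and 5 to 28 with single libraries left out; RLE scaling and totals without Rn45s gave 23, no filter 24, robust dispersions 21, a mean of at least 1 CPM 18 and DESeq2 27. For FFPE 18 h livers the count of 1 became 4 with DESeq2, 2 with robust dispersions, 0 in 1 model of all 6 groups and in the animals with a fresh-frozen library, and 0 to 1 with single libraries left out. In FFPE 3 wk the count of 1 became 8 in 1 model of all 6 groups and 0 to 1 with single libraries left out. It was 0 in the animals with a fresh-frozen library and at a mean of at least 1 CPM. Over all tested genes, the model of all 6 groups called 1037 higher and 993 lower in FFPE 3 wk. The main fit called 36 and 63. For FFPE 18 h that model called 91 and 134, against 503 and 574. In fresh-frozen livers it called 56 and 82, against 1132 and 1030. The 2 differences of response that involve FFPE 3 wk had 1 call each with DESeq2 against 0 by edgeR. FFPE 18 h against fresh-frozen controls gave 10 calls and 5 to 10 with single libraries left out; FFPE 3 wk against fresh-frozen controls gave 1, 2 with no filter, 0 at a mean of at least 1 CPM and 0 to 7 with single libraries left out. With the animal as a replicate block, the 3 differences of response kept 0 calls, FFPE 18 h against fresh-frozen controls had 9 and FFPE 3 wk against fresh-frozen controls 0. In FFPE 18 h, a turn of sign was looked for in the log2 fold changes of only some of the members. Among these, Kif20a (-0.27 to 0.33) and Top2a (-0.41 to 0.31) turned sign with single libraries left out. So did Kif11 (-0.20 to 0.18) and Ccnb1 (-0.000567 to 0.95). The log2 fold change of Kif11 was -0.00977 in the shared animals. Of the other single-gene values, 760 kept their direction and side of the threshold, 143 lost and 20 gained a call. The cause was not tested, except that leaving out libraries or thinning leaves fewer libraries or counts by construction.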
